A study of Rattus norvegicus with 6 samples.

Results

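Connexins are the proteins that build gap junctions, channels that join the interiors of neighbouring cells and pass ions and small molecules between them. Neurons of the retina use them as electrical synapses, which spread and average light signals, while glia and vessel walls use other connexins to share ions and signals. Pannexins are a separate family with a similar fold that form channels in the membrane of single cells; Panx1 is known as a channel for ATP release.

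The genes described here were 7 connexins (Gjd2, Gjc1, Gja10, Gja1, Gjb6, Gjb2 and Gja4) and 2 pannexins (Panx1 and Panx2), taken as the rows of the deposited gene table whose symbol equals one of these names in any case. All 9 genes were found, each in 1 row, among 26406 rows and 19623 different symbols. The Gjc1 row carried its symbol in capitals.

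The study sequenced neural retina RNA from rats aged 60 postnatal days, in 3 groups of 2 samples. The first was the Royal College of Surgeons (RCS) strain, whose photoreceptors degenerate because of a mutation in the phagocytosis receptor gene Mertk, given human neural progenitor cells (hNPCs) under the retina at postnatal day 21. The second was the RCS strain with sham surgery, in which the carrier medium alone was injected, and the third was the pigmented Long Evans strain with the same sham surgery. In grafted eyes RNA was taken from the retinal region around the graft, and in sham eyes from the corresponding region. Whether each sample is 1 animal is not stated in the labels.

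The table held 1 column of FPKM values (fragments scaled to transcript length and to the number of mapped fragments), and its name matched no sample or group. The levels below therefore describe rat retinal RNA of this series as 1 library or 1 pool, with no replicates, and genes are compared with one another within it. No comparison of grafted RCS, sham RCS and sham Long Evans retinas was made. Each value is followed by the deposited interval. An interval covers counting error only and does not show the spread between animals. In bulk RNA, fewer cells of a type and less RNA per cell cannot be told apart. If a deposited bound lies 2 standard errors from the value, each interval corresponds to a fragment number, called implied fragments here. These came to 1748 for the 9 genes, against 6124332 for the whole table. In 7 of the 8 genes above 0 the implied number lay within 0.02 of a whole number, and in Gja1 it was 935.954.

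Promoter sequences are shown for 3 of the 4 windows that lay before the outermost RefSeq start of a gene. They belong to Gjd2, the highest neuronal connexin, Panx2, the higher pannexin, and Gja4, the lowest gene above 0. The window of Gja1, the highest gene, lay before another start and is not shown. They are the 250 bases before the RefSeq transcription start in assembly GRCr8, which is not the build of the gene table, read 5′ to 3′ on the strand of the gene. Capitals mark the GC box, GGGCGG or its reverse complement CCGCCC, a motif that Sp-family transcription factors bind.
Gjd2, chr3:121229368-121229617, minus strand: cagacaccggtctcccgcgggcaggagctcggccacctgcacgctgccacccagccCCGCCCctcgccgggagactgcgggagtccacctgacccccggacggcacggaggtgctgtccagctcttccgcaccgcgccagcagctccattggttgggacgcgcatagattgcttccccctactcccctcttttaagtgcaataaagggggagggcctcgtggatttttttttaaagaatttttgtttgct
Panx2, chr7:122018687-122018936, plus strand: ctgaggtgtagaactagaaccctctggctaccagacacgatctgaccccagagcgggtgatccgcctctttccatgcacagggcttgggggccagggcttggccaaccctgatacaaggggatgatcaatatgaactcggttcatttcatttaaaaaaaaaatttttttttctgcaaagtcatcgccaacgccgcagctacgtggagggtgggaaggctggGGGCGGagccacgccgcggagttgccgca
Gja4, chr5:144920325-144920574, minus strand: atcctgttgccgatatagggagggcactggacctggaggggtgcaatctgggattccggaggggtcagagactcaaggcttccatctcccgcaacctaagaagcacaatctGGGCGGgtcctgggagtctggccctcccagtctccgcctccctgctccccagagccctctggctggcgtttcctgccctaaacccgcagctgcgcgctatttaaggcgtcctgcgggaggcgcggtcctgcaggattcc
The GC box began 194 bases before the start in Gjd2, 29 bases before it in Panx2 and 139 bases before it in Gja4. G and C made up 62.0% of the Gjd2 window, 54.8% of the Panx2 window and 63.2% of the Gja4 window, against a median of 51.2% over all 33469 windows of this length.

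RefSeq windows were found for 8 of the 9 genes, in 9 windows because Gjb6 had 2. Of these windows, 4 lay before the outermost RefSeq start of the gene. Those of Gja1, Gja10, Gjb2 and Gjb6 lay before other starts, so motifs before the outermost start of these genes were not read. A GC box was present in 7 of the 9 windows, which belong to 6 of the 8 genes, and 30.5% of all windows held one. The genes without it were Gja1 and Gja10, which stood highest and next to lowest among the genes above 0. Gjb2, listed at 0 FPKM, had a GC box and 16 CpG dinucleotides in its window, whereas Gja1 had no GC box and 8. None of the 9 windows held TATAAA on either strand, a core TATA box, which 12.9% of all windows held. None held TAATCC on either strand, the core of the site that the photoreceptor factor Crx binds, which 6.34% of all windows held. A missing motif says only that these letters are not in the window.

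Of the 9 genes, 5 reached 1 FPKM, against 61.0% of all symbols in the table. Another 3 lay above 0 and below 1 FPKM, and Gjb2 was listed at 0. The median over the 9 genes was 1.99 FPKM, against 3.17 FPKM over all symbols. The levels of the 8 genes above 0 ran from 0.528 FPKM in Gja4 to 26.0 FPKM in Gja1.

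**Figure D1:**
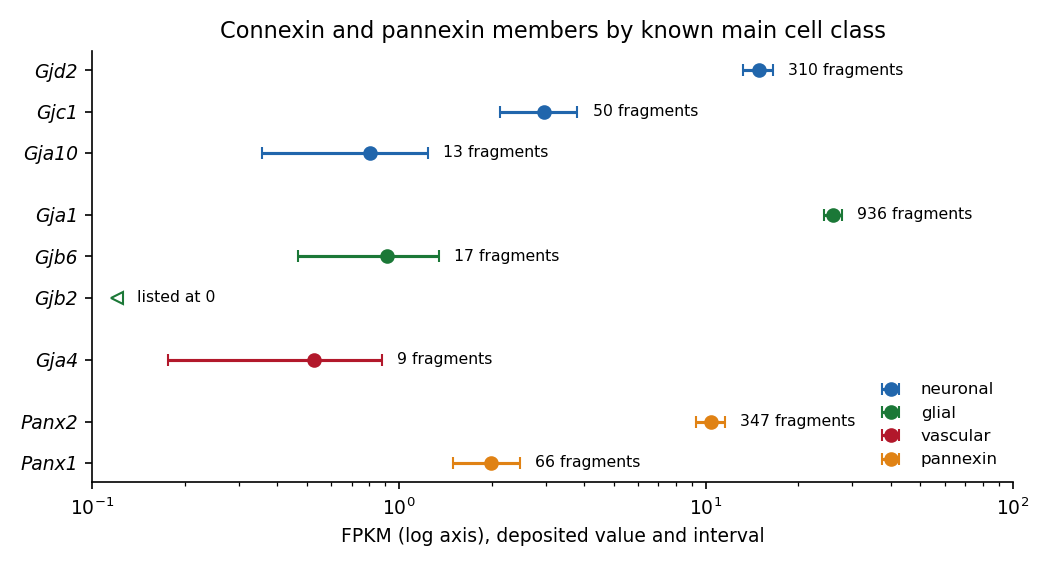
FPKM of the 9 genes on a log axis, grouped by the cell class each gene is best known for. Points are deposited values, bars are deposited intervals, and the implied fragments are written beside each. Gja1, Gjd2 and Panx2 lie above 10 FPKM, and Gjb6, Gja10 and Gja4 lie below 1 FPKM with wide intervals.

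Gjd2 encodes Cx36, the main connexin of electrical synapses between neurons. In mammalian retina it is known to join AII amacrine cells to each other and to ON cone bipolar cells, and to couple photoreceptors. Gjd2 stood at 14.9 FPKM (13.2 to 16.6), from an implied 310 fragments. It was the highest of the 3 neuronal connexins and held 79.8% of their sum. Its row (ENSRNOG00000008337) spans 112040925 to 112043925 of chromosome 3 in build rn5, and 3999 symbols of the table were higher.

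Gjc1 encodes Cx45, which in mouse retina is found in ON cone bipolar cells and some ganglion cells. It is also known in smooth muscle of vessel walls. Gjc1 stood at 2.97 FPKM (2.13 to 3.81), from an implied 50 fragments. Gjd2 was 5.004 times as high, with a 95% counting interval of 3.71 to 6.75. The Gjc1 row (ENSRNOG00000048838) spans 90573582 to 90576548 of chromosome 10.

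Gja10 encodes Cx57, which couples horizontal cells in mouse retina. It stood at 0.801 FPKM (0.357 to 1.24), from an implied 13 fragments. Gjd2 was 18.6 times as high (10.7 to 32.3). The Gja10 row (ENSRNOG00000006478) spans 52433348 to 52434869 of chromosome 5. Horizontal cell markers were low as well, apart from Calb1, a calcium-binding protein gene that other retinal neurons also express. Lhx1 stood at 1.19 FPKM, Onecut1 at 1.83 FPKM and Onecut2 at 0.153 FPKM, while Calb1 was at 23.7 FPKM. Their median was 1.51 FPKM over the 4 markers matched.

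Among the glial connexins, Gja1 encodes Cx43, the main connexin of astrocytes, which is also known in Müller glia, pericytes and endothelium. Gja1 was the highest of all 9 genes, at 26.0 FPKM (24.3 to 27.7) and an implied 936 fragments. Its row (ENSRNOG00000000805) spans 39612107 to 39624547 of chromosome 20, and 2163 symbols of the table were higher. Gja1 was 1.75 times as high as Gjd2 (1.54 to 1.99) and held 96.6% of the sum of the glial connexins.

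Gjb6 encodes Cx30, the partner of Cx43 in astrocytes. It stood at 0.910 FPKM (0.469 to 1.35), from an implied 17 fragments, and Gja1 was 28.6 times as high (17.7 to 46.1). Gjb2 encodes Cx26, best known from the cochlea and liver and described in brain astrocytes and the meninges. Gjb2 was listed at 0 FPKM, and its status in the table was OK, the same as for the other 8 genes. Gjb6 and Gjb2 lie side by side on chromosome 15, where Gjb2 (ENSRNOG00000008855) spans 41224499 to 41230461 and Gjb6 (ENSRNOG00000022116) spans 41248072 to 41256852.

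The glial markers differed by class. The 5 Müller glia markers were all above 1 FPKM, a level that 61.0% of all symbols reached. Their median was 58.4 FPKM, with Glul (glutamine synthetase) at 617 FPKM and Rlbp1 (a retinoid-binding protein gene) at 114 FPKM. Of the 4 astrocyte markers, 2 reached 1 FPKM, with a median of 4.29 FPKM. S100b was at 23.6 FPKM and Gfap, a glial filament gene, at 8.45 FPKM, while Aldh1l1 was at 0.128 FPKM and Pax2, the factor that marks retinal astrocytes, was listed at 0. Rlbp1 is also a pigment epithelium marker. The 4 pigment epithelium markers ran from 0.270 FPKM in Best1 to 114 FPKM in Rlbp1, with a median of 22.3 FPKM. Which cells the Gja1 RNA came from was not tested.

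Gja4 encodes Cx37, a connexin of endothelium. It had the lowest level above 0, at 0.528 FPKM (0.176 to 0.879), from an implied 9 fragments. Its row (ENSRNOG00000014357) spans 149142703 to 149145235 of chromosome 5. Gja1 was 49.3 times as high (25.6 to 95.03). Gja5, which encodes Cx40 of arterial endothelium, was at 0.0689 FPKM (0 to 0.166), from an implied 2 fragments. The span of the Gja5 row overlaps those of 3 other genes, among them Tuba1c, so its value is uncertain. The rows of the 9 genes were overlapped by no other row of the table.

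All 5 endothelial markers reached 1 FPKM, beside 61.0% of all symbols. Their median was 1.91 FPKM, beside 3.17 FPKM over all symbols. Kdr, a growth factor receptor gene that retinal neurons and glia can also express, was at 52.2 FPKM, whereas the junction genes Cldn5 and Cdh5 were at 3.75 and 1.00 FPKM. The 4 matched pericyte and smooth muscle markers had a median of 2.20 FPKM, led by Rgs5 at 27.1 FPKM.

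Set against one another by role, the 3 glial connexins summed to 26.9 FPKM (25.2 to 28.7), the 3 neuronal connexins to 18.6 FPKM (16.7 to 20.6) and the vascular connexin Gja4 to 0.528 FPKM. The glial sum was 1.44 times the neuronal sum (1.28 to 1.63), and the neuronal sum was 35.3 times the vascular one (18.2 to 68.4). Of the summed FPKM of all 9 genes, glial connexins held 46.0% (43.6% to 48.4%), neuronal connexins 31.9% (29.4% to 34.4%), pannexins 21.2% (19.3% to 23.0%) and the vascular connexin 0.902% (0.317% to 1.49%). The order of glial and neuronal connexins turned round when Gja1 was left out, with 2.81% glial and 57.4% neuronal, and when log2(FPKM + 1) was summed, with 31.2% glial and 37.5% neuronal. The glial lead thus rested on 1 gene, which is also known outside glia. Roles were taken from textbook knowledge, and several of these genes are known in more than 1 cell class. With Gjc1 counted as vascular, the neuronal share was 26.8% and the vascular share 5.99%, so the neuronal to vascular ratio depends on that choice.

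**Figure D2:**
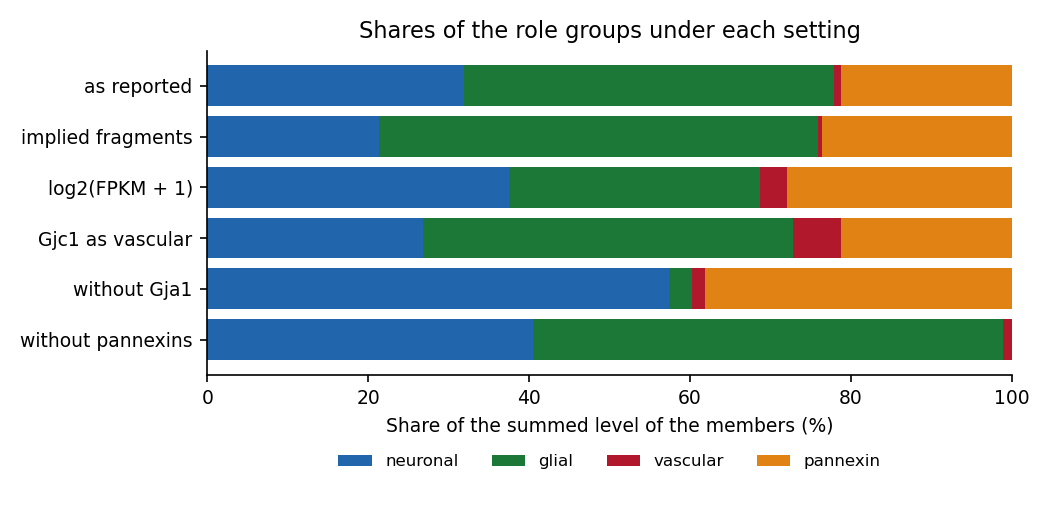
Share of the summed level of the genes held by neuronal connexins, glial connexins, the vascular connexin and pannexins, in percent, 1 bar per setting. The top bar is the reported one, with 46.0% glial and 31.9% neuronal; the glial share falls below the neuronal share on the log2 scale and without Gja1.

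Panx2 encodes a pannexin of neurons that is found largely on membranes inside the cell. It stood at 10.4 FPKM (9.28 to 11.5), from an implied 347 fragments, in a row (ENSRNOG00000033627) at 129728891 to 129738977 of chromosome 7. Panx1 forms channels that release ATP, and it is known in retinal ganglion cells. Panx1 was lower, at 1.99 FPKM (1.497 to 2.48) and an implied 66 fragments, in a row (ENSRNOG00000010060) at 13507954 to 13547151 of chromosome 8. Panx2 was 5.23 times as high as Panx1 (4.02 to 6.81).

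From the highest to the lowest the genes above 0 ran Gja1, Gjd2, Panx2, Gjc1, Panx1, Gjb6, Gja10 and Gja4. In 5 of the 7 pairs of neighbours in this order the counting interval of the ratio lay above 1. The closest of these were Gjc1 over Panx1, at 1.496 (1.04 to 2.16), and Gjd2 over Panx2, at 1.43 (1.23 to 1.67). Gjb6 over Gja10, at 1.14 (0.552 to 2.34), and Gja10 over Gja4, at 1.52 (0.649 to 3.55), did not differ beyond counting error. Over all 28 pairs, the same held for 3, which are the pairs among Gjb6, Gja10 and Gja4.

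FPKM divides by the length of the gene model, and 1 implied fragment was worth from 0.0278 FPKM in Gja1 to 0.0616 FPKM in Gja10. By fragments, not divided by length, Panx2 with 347 stood above Gjd2 with 310, and Panx1 with 66 above Gjc1 with 50. The other places in the order were the same on both scales.

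Values were also read for 9 other genes of these families, 8 connexins and 1 pannexin. Each of these was below 1 FPKM, a level that 61.0% of all symbols reached. Of the 9 genes, 4 were above 0 and 5 were listed at 0, as were 4634 of the 19623 symbols. The family counts cover these 9 genes only, and not every row of these families in the table. The highest of these 9 was Gja3, which encodes the lens fibre connexin Cx46, at 0.775 FPKM (0.345 to 1.20), from an implied 13 fragments. Gjb6 over Gja3, at 1.17 (0.571 to 2.42), did not differ beyond counting error. The 5 lens markers were all above 1 FPKM, a level that 61.0% of all symbols reached. Their median was 2.74 FPKM, beside 3.17 FPKM over all symbols. The highest were the crystallin gene Cryaa at 427 FPKM and Bfsp2 at 4.59 FPKM. The intervals of Mip (0.743 to 2.45) and Lim2 (0.844 to 2.78) reached below 1 FPKM. The part of lens RNA in the Gja3 value was not tested.

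Among connexins of myelinating cells, Gjb1 (Cx32 of Schwann cells and oligodendrocytes) was at 0.434 FPKM (0.106 to 0.763), and Gjc3 was listed at 0. Of the oligodendrocyte markers, Mog was at 2.60 FPKM and Mbp at 0.664 FPKM. Gjb5 stood at 0.132 FPKM (0 to 0.397), the level of 1 implied fragment. Gjd3, Gjd4, Gje1 and Panx3 were listed at 0.

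**Figure D3:**
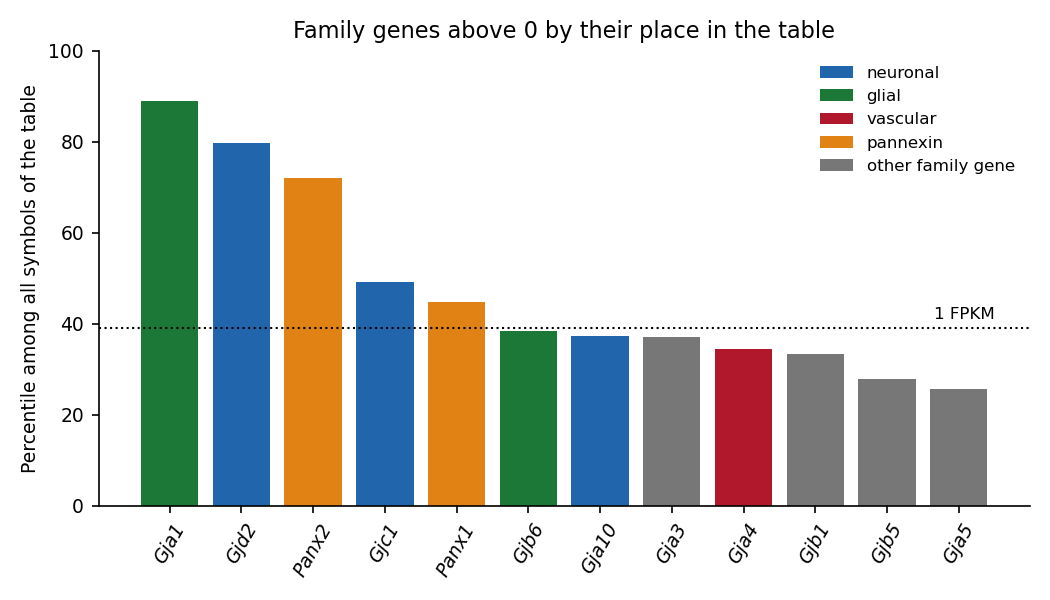
Percentile of each of 12 connexin and pannexin genes above 0 among all symbols of the table, with a dotted line at 1 FPKM. Bars are coloured by the cell class each gene is best known for, and grey bars are other genes of these families. Gja1 stands at 89.0, Gjd2 at 79.6 and Panx2 at 72.1, and each grey bar drawn lies under the dotted line.

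Several of these genes are neighbours in the genome. On chromosome 15, Gja3, Gjb2 and Gjb6 lie within 110 kb, and all were below 1 FPKM. On chromosome 5, Gja4 and Gjb5 lie within 48.6 kb, and both were below 1 FPKM as well. None of the 3 genes above 10 FPKM, Gja1, Gjd2 and Panx2, had another of the genes described here within 500 kb. Other genes without such a neighbour lay on both sides of 1 FPKM, such as Gjc1 and Panx1 above it and Gja10, Gjb1 and Gja5 below it. Of the 18 genes described, 5 reached 1 FPKM, beside 61.0% of all symbols. A link between neighbourhood and level was not tested.

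Genes that act on gap junctions were read beside the channels. The 10 scaffold and trafficking genes were all at 1 FPKM or more, beside 61.0% of all symbols in the table. Their median was 40.3 FPKM, beside 3.17 FPKM over all symbols. Highest among them were the tubulin gene Tuba1a at 307 FPKM and the ubiquitin ligase gene Nedd4 at 106 FPKM. Tjp1, the ZO-1 scaffold that binds Cx43 and Cx36, was at 26.7 FPKM (25.6 to 27.9), close to Gja1 at 26.0 FPKM, and Cnst (consortin, a connexin trafficking receptor) was at 24.9 FPKM. Tjp1 and Cnst were named after their values were seen. Of 13 genes for kinases and a phosphatase that act on connexins, 12 were at 1 FPKM or more, against the same 61.0% of all symbols. The median was 23.8 FPKM, and the highest were Camk2d at 61.9 FPKM and Prkca at 54.7 FPKM.

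Dopamine, adenosine and nitric oxide are known to tune coupling through these channels in the retina. Their list of 9 genes had 8 at 1 FPKM or more, beside 61.0% of all symbols, and a median level of 10.9 FPKM. It was led by Gucy1b3 and Gucy1a3, the subunits of the nitric oxide receptor guanylate cyclase, at 36.5 and 33.0 FPKM. The dopamine receptor genes Drd2, Drd1 and Drd4 lay between 10.9 and 11.9 FPKM. Of the adenosine receptor genes, Adora1 was at 10.7 FPKM (9.50 to 11.9) and Adora2a at 0.854 FPKM (0.505 to 1.20). Th, the gene of the dopamine-synthesizing enzyme, was at 2.34 FPKM (1.64 to 3.03). The receptor genes and Th were named after their values were seen.

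Partners of the pannexins were read in the same way. Of 7 genes for ATP receptors and ATP-degrading enzymes, 5 reached 1 FPKM, beside 61.0% of all symbols, and their median was 1.497 FPKM, beside 3.17 FPKM over all symbols. Nt5e, which makes adenosine outside the cell, was at 24.4 FPKM (22.8 to 26.1), and the ATP receptor gene P2rx4 was at 3.99 FPKM (3.12 to 4.86). P2rx7, the ATP receptor often studied with Panx1, was named after its value was seen; it was at 0.121 FPKM (0.0128 to 0.230), from an implied 5 fragments.

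**Figure D4:**
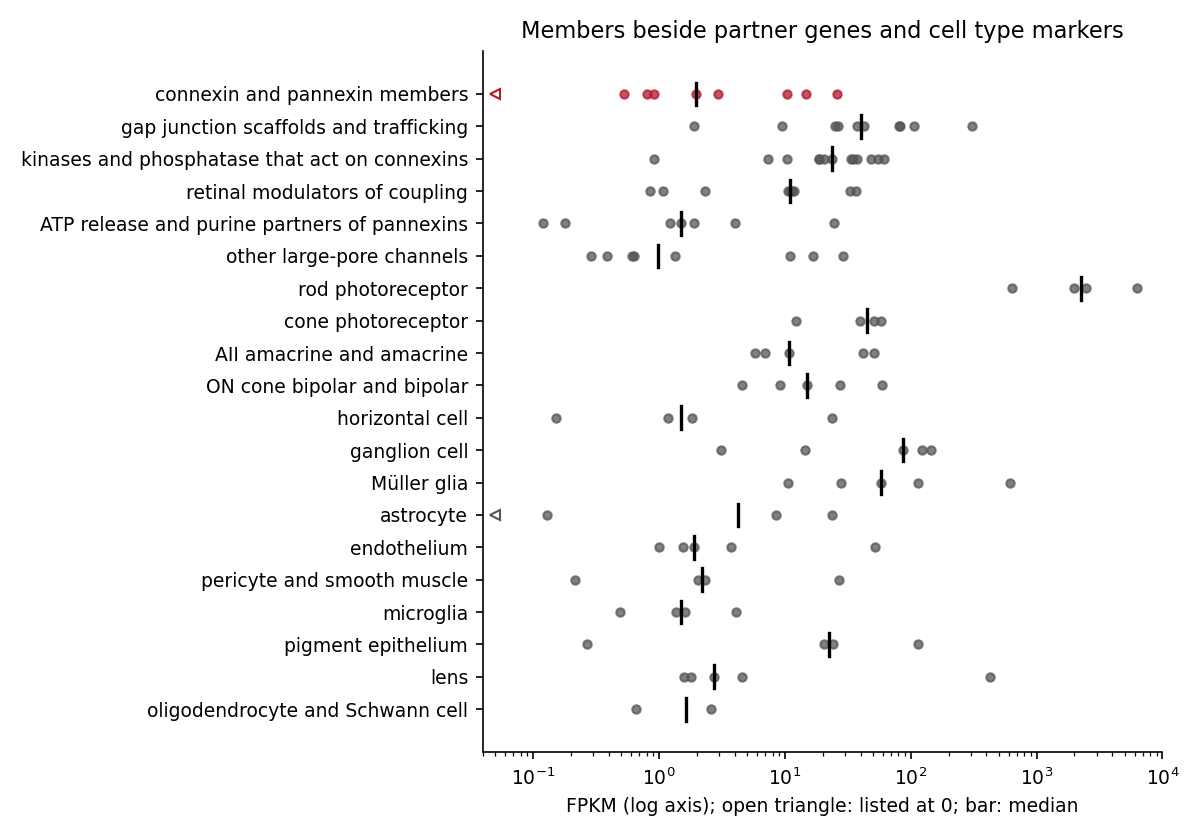
FPKM on a log axis of the 9 genes (red, top) and of each partner and cell type marker list (grey), 1 point per gene, with black bars at medians and open triangles for genes listed at 0. The median of the 9 genes, 1.99 FPKM, lies near that of the endothelial markers, 1.91 FPKM, and below that of the Müller glia markers, 58.4 FPKM.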

How the data were processed

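RNA was measured in 6 retinal samples of 3 groups. The authors deposited 1 gene table with FPKM values and a lower and upper bound per gene, in the Cufflinks layout per the file headers. Cufflinks 2.0.8 and build rn5 are named in the submitters' processing notes. The aligner, annotation release and confidence level were not given in the sources used here. FPKM was used as deposited. No column names a sample, so the planned limma fits between groups were not run.

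Levels, percentiles among 19623 symbols (rows sharing a symbol in any case were summed), and ratios with 95% intervals were computed (scipy 1.17.1, pandas 2.3.3, numpy 2.4.6, matplotlib 3.10.9, Python 3.11.15). Bounds were read as 2 standard errors, an assumption. The interval calculation was tested on simulated data built with the same assumption, so that test does not bear on the assumption itself. The total of 6124332 implied fragments sets the precision, and the sequencing depth itself is unknown. Spans and positions are as the file lists them. Promoters came from RefSeq (GRCr8), with motifs searched on both strands. Genes named are the 9 members, other family genes, and of each list the 2 highest and those at 0; others, marker genes among them, were named after their values were seen. A few genes are not reported here; counts over the family and the lists leave them out, while shares over all connexin rows and counts over all symbols include them. Members and lists were chosen with earlier results of these data known.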

Additional observations from a re-analysis of the deposited data

How the results depend on the processing

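The count of 5 genes at 1 FPKM or more became 8 at 0.5 FPKM and 3 at 5 FPKM. The shares of all symbols at 0.5 and 5 FPKM are not given here, so these counts have no background beside them. Of the other family genes described, 0 reached 1 FPKM, beside 61.0% of all symbols, and 1 reached 0.5 FPKM. The Gja1 to Gjd2 ratio of 1.75 was 1.47 with the lower bound over the upper bound and 3.02 by implied fragments. By implied fragments, a setting added after the data were seen, 4 neighbouring pairs in place of 2 did not differ beyond counting error. An exact binomial interval (added) gave 2 such neighbouring pairs of 7, as did the deposited bounds. The role shares moved by more than their counting error as follows. The neuronal share was 21.3% by implied fragments, 26.8% with Gjc1 as vascular, 37.5% on the log2 scale, 57.4% without Gja1 and 40.5% without pannexins (added). The glial share was 54.5% by implied fragments, 48.8% over all connexin rows of the table, rows not described here included, 31.2% on the log2 scale, 2.81% without Gja1 and 58.4% without pannexins (added). The vascular share was 5.99% with Gjc1 as vascular, 3.36% on the log2 scale and 1.63% without Gja1. Each of these changes follows from what its setting counts. Among symbols above 0, the percentiles of all 8 genes above 0 were lower, from 14.3 to 85.6.

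No paired analysis was possible because no column names a sample. The replicate block, the pseudocount in the group fits and leaving out a replicate were not run for that reason. Gjb6, Gja10 and Gja4 rest on 9 to 17 implied fragments, and their order is not resolved.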

Other observations

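Other genes for large-pore channels were uneven. Of 8 listed, 4 reached 1 FPKM, beside 61.0% of all symbols. Their median was 0.993 FPKM, beside 3.17 FPKM over all symbols. Lrrc8b and Lrrc8a, subunits of the volume-regulated anion channel, stood at 28.8 FPKM (26.8 to 30.7) and 16.7 FPKM (15.3 to 18.0), and Lrrc8d at 11.1 FPKM (9.98 to 12.2), beside Lrrc8c at 0.613 FPKM and Lrrc8e at 0.640 FPKM. Lrrc8d, Lrrc8c, Lrrc8e and the Calhm genes below were named after their values were seen. Among the calcium homeostasis modulator channels, which like Panx1 can pass ATP, Calhm2 was highest at 1.35 FPKM (0.828 to 1.86), with Calhm3 at 0.390 FPKM and Calhm1 at 0.288 FPKM, from an implied 4 and 3 fragments.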
